A study of Mus musculus with 4 samples.

Results

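The outer root sheath is the outer wall of the hair follicle, a sleeve of keratinocytes that runs down from the basal layer of the epidermis and encloses the companion layer, the inner root sheath and the hair shaft. Its basal cells rest on a basement membrane and make the keratins *Krt5* and *Krt14*, and its upper part holds follicle stem cells. Here, its transcriptome was described in mouse dorsal skin with a spatial array, in which each spot captured the mRNA of a small area of a tissue section and therefore of several neighbouring cells. Outer root sheath spots were those in which 7 genes were highest on average: *Slc45a3* (a sugar transporter family member), *Slc4a1* (an anion exchanger), *Atp2c2* (a calcium and manganese pump), *AU018091* (a gene named by its clone), *Gpx2* (a glutathione peroxidase), *Gabrp* (a GABA receptor subunit) and *Nppc* (C-type natriuretic peptide). The 10% of spots with the highest score in each of 4 slices were taken, which gave 642 outer root sheath spots of 6411 spots in all.

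The paper names 3 mice as the source of the skin. All carried *Krox20-CreERT* (a Cre recombinase knocked into *Krox20*) and the *R26-tdTomato* reporter. They received 4-hydroxytamoxifen at postnatal day 2 and were collected at postnatal day 38. There was no other genotype or treatment, so every comparison below is between spots of the same skin. Each of the 4 slices held sections of the same mice and counted as a technical replicate, so that the p-values measure the spread between slices and not that between animals. Which spots came from which mouse was not given in the sources used here.

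The slices held 26910422, 24128004, 21384253 and 19393026 unique molecular identifiers (UMIs, each marking a captured mRNA molecule), and a spot was kept when at least 250 genes were detected. Slice 1 gave 165 outer root sheath spots of 1649, slice 2 gave 175 of 1751, slice 3 gave 156 of 1555 and slice 4 gave 146 of 1456. Their median depth was 14479, 12175, 11175.5 and 10825.5 UMIs per spot, against 14652, 11985, 12056 and 11912 UMIs in the other spots. Mitochondrial genes took 3.33% to 4.87% of their UMIs and 3.45% to 5.26% of those of the other spots. Levels are given as CPM (counts per 1000000) of the UMIs summed over a set of spots in a slice.

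The 7 score genes chose the spots, and their levels are therefore given only as a description. All 7 were detected in 288 of the 642 outer root sheath spots (44.9%) and in 64 of the 5769 other spots (1.11%). The last spot taken and the first one left out differed little, with scores of 0.8751 and 0.8689 in slice 1, 0.9535 and 0.9532 in slice 2, 0.9367 and 0.9341 in slice 3, and 0.9639 and 0.9636 in slice 4, so the border of the set was a point on a continuous range. When each gene was left out of the score in turn and measured in spots chosen by the other 6, it was higher in those spots in 4 of 4 slices for each of the 7 genes. The mean log2 ratio was 2.90 ± 0.15 (SD, n = 4) for *Slc4a1* and 2.01 ± 0.10 for *Gabrp*, which were the highest and the lowest of the 7. The exact sign-flip permutation test over 4 slices has 16 sign patterns, 2 of which are as extreme as all slices in 1 direction, so it cannot reach p = 0.05 and these ratios carry no call. *Slc4a1* is also the anion exchanger of red blood cells. The summed level of the 7 erythroid genes was 1359 ± 412 CPM (SD, n = 4) against 1525 ± 96.7 CPM in the other spots.

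The keratins of basal follicle cells marked these spots, and so did most of the other genes known from the outer root sheath. *Krt14* stood at 7715, 8676, 8313 and 7953 CPM in the 4 slices, against 1660, 1730, 1806 and 1917 CPM in all other spots. Every slice of the first set lay far above every slice of the second. *Krt5*, the partner of *Krt14* in the keratin filament, gave 4647 ± 317 CPM against 1278 ± 169 CPM (SD, n = 4). *Sox9*, a transcription factor of the outer root sheath and its stem cells, gave 596 ± 93.3 CPM against 186 ± 32.1 CPM. Of 15 listed basal outer root sheath genes, 12 were higher, 1 was lower and 2 did not pass the test, where 21.2% of all 13596 genes tested were higher and 21.4% were lower. The median log2 fold change of the list was 0.82, and that of all genes was -0.02. *Barx2*, *Lhx2* and *Tcf7l1*, all transcription factors, were among those that were higher, with log2 fold changes of 1.53, 0.92 and 1.10.

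The exceptions were *Krt15*, *Cd34* and *Nfatc1*, which are known from the bulge, the stem cell niche of the upper outer root sheath. *Sox9*, *Lhx2* and *Tcf7l1*, also known from the bulge, were higher. The paper uses *Krt15* as a marker of the basal epidermis too, and the other spots included the epidermis. *Krt15* was lower, at 322, 319, 339 and 404 CPM against 583, 527, 521 and 686 CPM, a log2 fold change of -0.69 (edgeR adjusted p = 4.83e-12). *Cd34*, a surface marker of bulge cells, was at 102.5 ± 11.98 CPM and 101.0 ± 6.55 CPM, with overlapping ranges and no call (adjusted p = 0.413, edgeR), and *Nfatc1* had a log2 fold change of -0.34 (adjusted p = 0.148, edgeR). *Lgr5*, which marks cycling lower bulge and lower outer root sheath cells, was higher (38.3 ± 7.93 CPM against 22.7 ± 5.12 CPM, log2 fold change 0.82). When the rest was limited to the spots above its median for *Krt5* and *Krt14*, here called the keratin-rich rest, 13.2% of 12394 genes tested were higher and 13.6% lower, and the counts given below for that comparison are to be read against these shares. There, 8 of the 13 other listed genes were higher and 4 lower, among them *Cd34* and *Nfatc1* (log2 fold changes -0.76 and -1.31). Fibroblast and immune genes were mostly lower there too, as given below. What bulge cells and other cells each contributed to *Cd34* was not tested.

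The spots were not pure outer root sheath. *Tchh*, which encodes trichohyalin of the inner root sheath, was at 16540, 12780, 12340 and 12390 CPM in them, against 14520, 12710, 11940 and 13250 CPM in the other spots, and it did not pass the test. *Krt71*, a keratin of the inner root sheath, was lower but still stood at 5625 ± 355 CPM, against 7198 ± 260 CPM. The 8 inner root sheath genes summed to 30680 ± 4131 CPM in outer root sheath spots, more than the 19030 ± 1012 CPM of the 15 basal outer root sheath genes. How much of any level came from each layer within a spot was not tested.

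**Figure D1:**
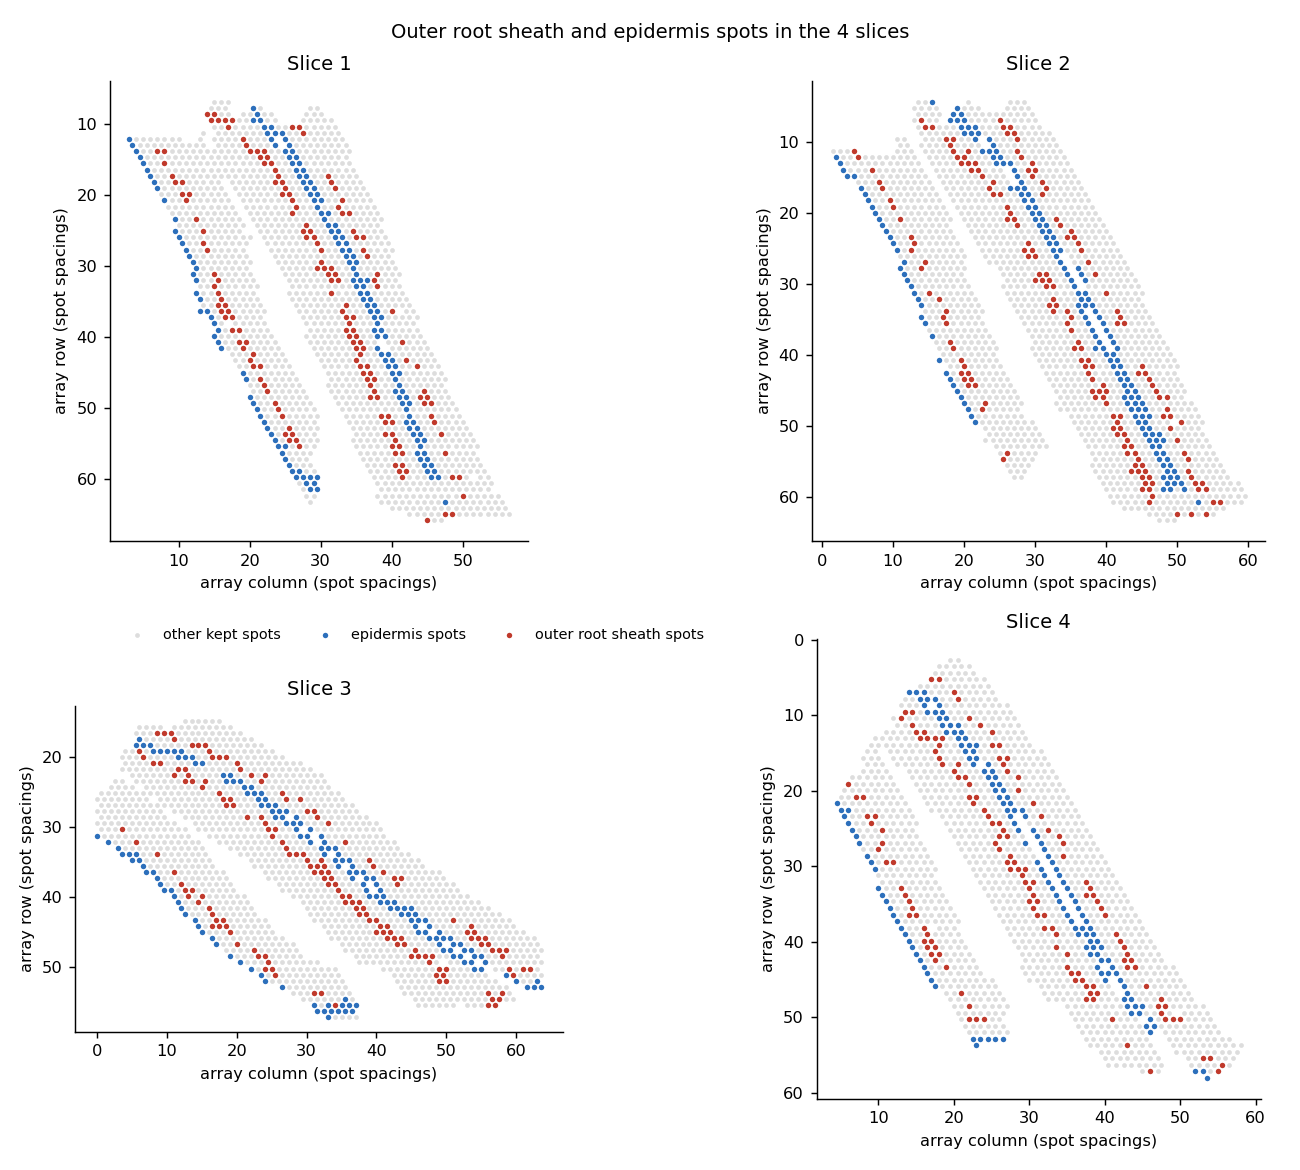
Positions of the kept spots in the 4 slices, one panel per slice, with array column and array row in spot spacings; red points are the 642 outer root sheath spots, blue points are epidermis spots and grey points are all other kept spots. The red spots run as thin bands parallel to the blue ones in every slice, a few spots away from them.

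The rule used no positions, yet the spots formed bands parallel to the skin surface. Epidermis spots were taken as the 10% of each slice with the highest score over 9 genes of the differentiated epidermis, such as *Lor* and *Krt10*, and the distance of a spot was counted in steps on the array grid to the nearest of them. Of the 642 outer root sheath spots, 618 lay 2 to 4 steps away, 10 lay nearer and 14 lay farther, the farthest at 7 steps. The share at 2 to 4 steps was 96.3% ± 1.27 (SD, n = 4) for them and 29.0% ± 2.71 for the other spots. At 3 steps, 46.6%, 50.5%, 34.3% and 46.5% of all spots in the 4 slices were outer root sheath spots. At 1 step the mean was 1.02% and at 5 steps it was 1.07%. Slice 3 had its band nearer to the surface, with 28.8% at 2 steps, the highest of the 4 slices, and 34.3% at 3 steps, the lowest.

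Genes of the other layers peaked at other distances. The kept spots at 0 to 8 steps were used, which left out 249 spots farther away. *Lor* of the cornified epidermis was highest at 0 steps, but it helped to choose the epidermis spots, so the rule set this peak. *Krt79* of the upper follicle was highest at 1 step in 4 of 4 slices. So was *Cd34*, at 256 ± 12.5 CPM (SD, n = 4), against 94.6 ± 8.47 CPM at 3 steps. The fibroblast gene *Col1a1* fell between the same steps, from 10690 ± 2155 CPM to 1799 ± 454 CPM. *Lrig1*, *Sox9* and *Krt6a* were highest at 2 steps, with *Lrig1* at 1 step in slice 4. *Krt17* was highest at 1 or 2 steps, and *Krt14* at 2 steps except in slice 1, where it was highest at 3 steps. *Krt5* was highest at 3 steps except in slice 3, where it was highest at 2 steps. *St3gal5* and *Slc6a19* were highest at 3 steps in every slice. *Tchh* followed at 4 steps, *Krt71* at 4 or 5 steps, and *Mki67*, a gene of dividing cells, at 7 or 8 steps, the end of the range examined. These distances cross gaps between sections and depend on the angle of each section, so they give an order and not a depth in the skin.

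**Figure D2:**
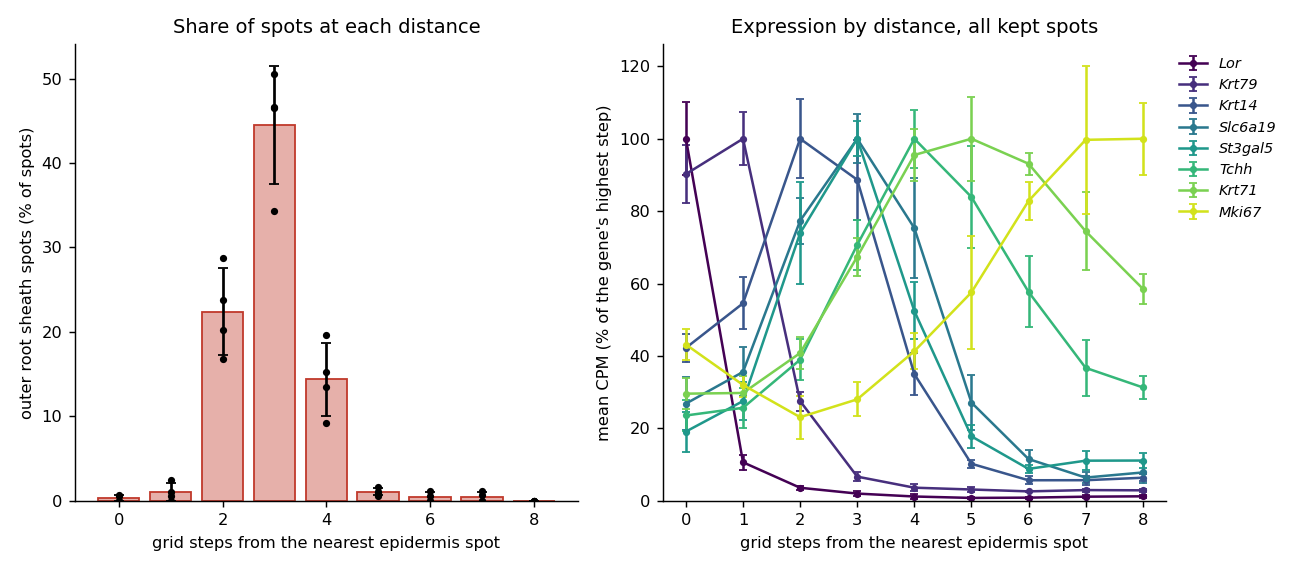
Left, outer root sheath spots as a percentage of all kept spots by grid steps from the nearest epidermis spot (bars, mean; error bars, SD over 4 slices; points, slices). Right, mean CPM of 8 genes over the kept spots at each step from 0 to 8 as a percentage of the gene's own highest step (error bars, SD over 4 slices). *St3gal5* leads at 3 steps, *Tchh* at 4 steps and *Mki67* at 7 to 8 steps. *Lor* leads at 0 steps because it helped to choose the epidermis spots.

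At this cut, the bands were broken rather than continuous. On average 34.5% ± 2.41 of the neighbours of an outer root sheath spot were outer root sheath spots too, where 10% of all spots were, and 9.18% ± 3.05 had no such neighbour. With the top 5% and 20% of spots, 27.6% and 1.35% had none, so how broken the bands were depended on the cut. When each slice was divided into 3 strips that ran along its long axis and held equal numbers of spots, the middle strip held more of them, 15.2% ± 1.63 of its spots, than the outer strips, with 8.05% ± 0.683 and 6.83% ± 0.958. The middle strip was ahead in 4 of 4 slices. Within 2 to 4 steps of the epidermis the shares were 36.3% ± 3.33 in the middle strip and 20.9% ± 2.35 and 22.6% ± 3.77 in the outer ones. The strips followed the array and were not assigned to mice.

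Next, the expression of all genes was compared between outer root sheath spots and all other spots, with the UMIs of each set summed per slice and the 2 sums of a slice kept together (edgeR's quasi-likelihood test). The score genes took no part. Since the spots were chosen by genes measured in the same spots, a higher gene here is one that went with the 7 genes from spot to spot. Of 13596 genes tested, 2888 (21.2%) were higher and 2906 (21.4%) were lower at an adjusted p under 0.05, 42.6% in all. Of these, 561 (4.13%) were at least 2-fold higher and 899 (6.61%) at least 2-fold lower. Against the keratin-rich rest, these counts were 96 and 562. Of the 14 leading genes named here, *Krt14* helped to choose that rest, so its value there is no test. The others had log2 fold changes of 0.87 to 1.72 there, and the 8 lowest genes had -1.39 to -0.96. Among the 2888 higher genes, 2531 were higher in all 4 slices, and for 1732 the 2 sets of 4 values did not overlap. For the 2906 lower genes, these counts were 2847 and 2390. Of all 13596 genes tested, 7190 had 1 sign in all 4 slices and 4700 had no overlap.

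Several of the genes that rose most encode proteins of the cell surface known for the uptake of amino acids, peptides and ions in the gut and kidney. *Slc6a19*, a transporter of neutral amino acids, gave 175, 191, 192 and 165 CPM against 42.4, 42.7, 44.8 and 46.3 CPM in the other spots, with a log2 fold change of 2.10 (SE 0.06, adjusted p = 3.00e-22, edgeR). *Anpep*, an aminopeptidase of the same membranes, gave 107, 169, 176 and 147 CPM against 25.1, 36.0, 37.0 and 38.7 CPM. Both genes were higher in each slice without overlap. *Slc15a1*, a carrier of di- and tripeptides, was at 219 ± 38.3 CPM against 50.3 ± 8.43 CPM (log2 fold change 2.17).

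Smaller in count but of like fold were carriers of other solutes. *Slc1a1*, a transporter of glutamate and cysteine, gave 50.4, 67.3, 56.9 and 55.4 CPM against 9.29, 10.9, 9.09 and 10.96 CPM, a log2 fold change of 2.57. *Trpm6*, a magnesium channel, gave 54.4, 71.3, 61.6 and 59.5 CPM against 10.4, 11.2, 10.7 and 10.8 CPM, also a log2 fold change of 2.57. The values of both genes were separate between the sets in each slice. *Slc10a6*, a carrier of sulfated steroids, *Slc6a14*, a carrier of neutral and basic amino acids, and *Slc5a8*, a monocarboxylate carrier, had log2 fold changes of 2.33, 2.21 and 2.04. *Aqp9*, a channel for water and glycerol, had 2.02.

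A list of 32 genes of absorptive membranes, compiled after these values had been seen, held 31 genes found in the files. Of the 18 that were tested, 14 were higher, 1 was lower and 3 did not pass the test, with a median log2 fold change of 1.22. In place of these, 10 of 16 were higher and 1 lower against the keratin-rich rest, with a median of 0.69. The list is no independent evidence, since several of its genes were already known to lead. *Dpp4*, a dipeptidyl peptidase of such membranes, was lower (26.5 ± 2.43 CPM against 43.4 ± 1.84 CPM), and *Enpep*, another peptidase, was at 1.35 ± 1.53 CPM against 1.63 ± 0.0460 CPM with no call. *Mep1a*, *Slc5a2*, *Slc7a9* and *Cltrn* were at 0 in the outer root sheath spots of every slice, where the limit that a count of 0 allows was 0.360 CPM over their 8339382 UMIs, covering counting error only. Over all 238 solute carrier genes tested, 82 were higher and 40 lower (34.5% and 16.8%).

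A pair of sialyltransferases was also among the leading genes. *St3gal5*, which makes the ganglioside GM3, was at 169, 172, 175 and 164 CPM against 28.2, 27.2, 33.8 and 35.9 CPM (log2 fold change 2.52, SE 0.07, adjusted p = 9.85e-23, edgeR). *St6gal1*, which adds sialic acid to N-glycans, was at 101.1, 106.5, 99.7 and 117 CPM against 17.1, 20.1, 19.2 and 21.0 CPM (log2 fold change 2.51, SE 0.07). Neither gene overlapped between the sets. Over the family, compiled after these values had been seen, 5 genes were higher and 4 lower of 16 tested, with a median of 0.08, so the rise lay in single members.

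The remaining leading genes were of varied kinds. *Chrna4*, a nicotinic acetylcholine receptor subunit, had the highest log2 fold change of the named genes, 2.91, with 25.8, 22.3, 43.3 and 31.2 CPM against 3.40, 3.70, 4.37 and 5.48 CPM. *Phactr1*, a regulator of actin and protein phosphatase 1, *Hilpda*, a protein of lipid droplets, and *Spink12*, of a family of serine protease inhibitors, had log2 fold changes of 2.28, 2.23 and 2.21. *Scrg1* and *Tprg* had 2.19 and 2.18. *Mc5r*, a melanocortin receptor best known from the sebaceous gland, gave 98.3 ± 15.2 CPM against 24.0 ± 4.46 CPM (log2 fold change 2.10), while 5 of the other 6 sebaceous genes were lower and *Mgst1* did not pass the test. *S100b*, often used as a marker of Schwann cells, gave 27.8 ± 3.69 CPM against 7.47 ± 0.513 CPM, while *Mbp*, *Sox10* and *Prx* of the same cells did not pass the test.

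The gene models of these leaders lie on several chromosomes of the mouse genome build GRCm38, the build named for the files. *St3gal5* (ENSMUSG00000056091) lies at chr6:72097592-72154571 on the plus strand. *St6gal1* (ENSMUSG00000022885) lies at chr16:23224740-23360350 on the plus strand and *Chrna4* (ENSMUSG00000027577) at chr2:181018380-181043546 on the minus strand. *Trpm6* and *Slc1a1* share chromosome 19, at chr19:18749983-18892511 and chr19:28835049-28913960, and are not neighbours.

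**Figure D3:**
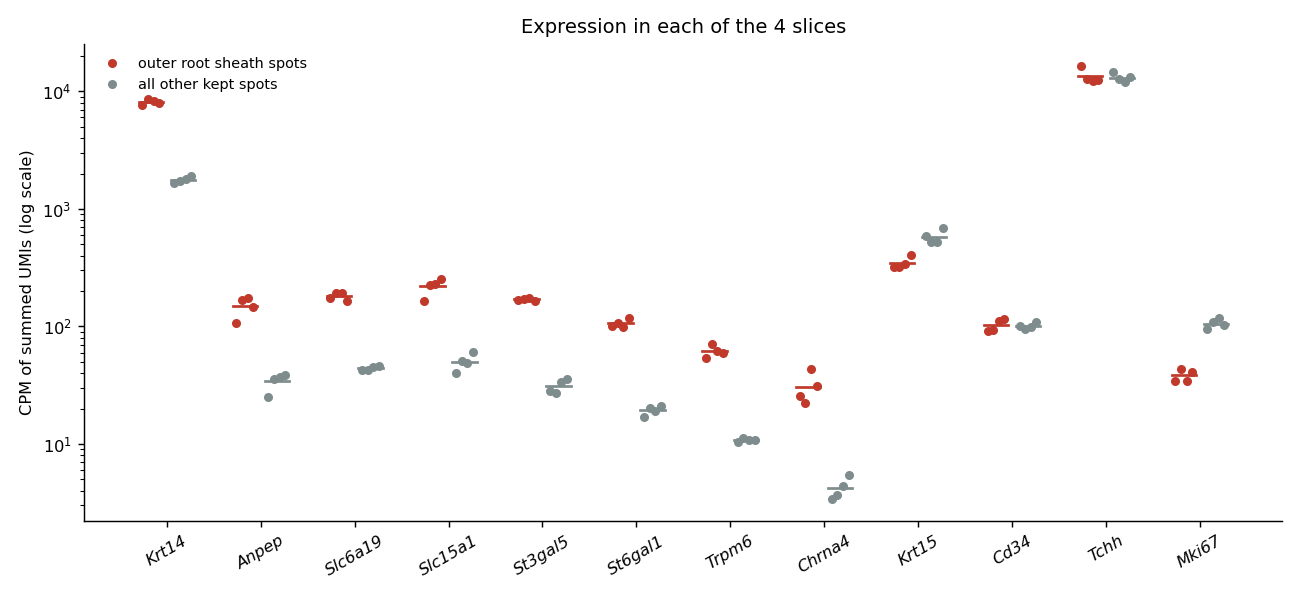
CPM of 12 genes on a log axis in outer root sheath spots (red) and in all other kept spots (grey); each point is a slice and each line the mean of 4 slices. The sets are separate for *Krt14*, *Anpep*, *Slc6a19*, *Slc15a1*, *St3gal5*, *St6gal1*, *Trpm6* and *Chrna4*, overlap for *Cd34* and *Tchh*, and are separate in the opposite direction for *Krt15* and *Mki67*.

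The genes that were lowest in outer root sheath spots were those of skeletal muscle, which lies under the skin as the panniculus carnosus. *Tcap*, a protein of the sarcomere, was at 7.25, 12.9, 12.5 and 23.6 CPM against 109, 149, 160 and 139 CPM, a log2 fold change of -3.31. *Mybpc1*, *Apobec2*, *Trdn*, *Cox8b*, *Xirp2*, *Ttn* and *Myot*, all genes of striated muscle, had log2 fold changes from -3.21 to -3.03. All 8 genes of the skeletal muscle list were lower, and they summed to 1011 ± 314 CPM against 6788 ± 949 CPM. Fewer muscle cells under a spot and less muscle RNA per cell cannot be told apart.

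Genes of other follicle layers were called in both directions, also within some layers. Of 8 inner root sheath genes 6 were lower and none was higher, with *Tchh* and *Krt27* not passing the test. Of 15 hair shaft genes, 6 were higher and 7 lower; the higher ones included *Krtap4-7* and *Krtap3-1* and the lower ones *Krt35* and *Krt36*. Compared with the keratin-rich rest, 2 inner root sheath genes, *Krt27* and *Krt71*, were higher and 2 lower (median log2 fold change -0.03, in place of -0.45), and 5 hair shaft genes were higher and 1 lower. In the companion layer, *Krt6a* (1384 ± 70.4 CPM against 360 ± 48.9 CPM) and *Krt16* were higher and *Krt75* was lower by 0.16 on the log2 scale, but against the keratin-rich rest neither *Krt16* nor *Krt75* passed the test, and *Krt75* was at 0.0042. Reads of *Krt6a* may be shared with its near copy *Krt6b*, which is listed at 0 in the outer root sheath spots. All 14 genes of dividing cells were lower, among them *Mki67* (38.3 ± 4.56 CPM against 106 ± 9.64 CPM) and *Top2a* (19.2 ± 3.35 CPM against 51.4 ± 1.09 CPM), and so were all 6 melanocyte genes, with *Dct* at 64.3 ± 16.1 CPM against 181 ± 9.50 CPM. Of the 14 genes of dividing cells, 6 were lower against the keratin-rich rest (median log2 fold change -0.27, in place of -1.24) and none of the 6 melanocyte genes passed the test (median 0.03, in place of -1.40).

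Genes of the surface and of the dermis were mostly lower as well. Of 9 epidermal genes 8 were lower, with *Lor* at 119 ± 26.8 CPM against 526 ± 86.5 CPM, and *Sbsn* did not pass the test. Of 7 upper follicle genes, *Lrig1* and *Plet1* were higher and 5 lower. Against the keratin-rich rest, none was higher and 6 were lower, with *Plet1* at -1.10, and *Plet1* was also at -0.071 with the top 5% of spots and at -0.019 with thinned spots, with no call in either. *Corin*, *Inhba* and *Wif1* were the lower ones of 8 tested dermal papilla genes, and *Sox2* was listed at 0. Only 3 dermal papilla genes were tested against the keratin-rich rest. The 1 that was lower there was none of *Corin*, *Inhba* and *Wif1*. Of 7 fibroblast genes 6 were lower and *Pdgfra* was higher by 0.43, 5 of 6 smooth muscle genes were lower, and 5 of 8 immune genes were lower, 4 of which belong to antigen presentation by MHC class II. In the comparison with the keratin-rich rest, *Pdgfra* did not pass the test and all 8 immune genes were lower. The median log2 fold changes there were -1.17 for fibroblast, -1.32 for smooth muscle and -1.79 for immune genes, in place of -0.50, -0.66 and -0.70.

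Fat genes went the other way. Of 7 adipocyte genes, 5 were higher and none lower, with a median log2 fold change of 0.33, and the summed level was 2051 ± 122 CPM against 1757 ± 66.2 CPM, higher in 4 of 4 slices. *Fabp4* was the most abundant of them, at 1285 CPM. Of 5 endothelial genes, *Kdr* and *Cdh5* were higher by 0.47 and 0.33 on the log2 scale and none was lower, whereas against the keratin-rich rest none was higher and *Cldn5* was lower (median -0.11). Of 5 erythroid genes tested, *Hba-a1* was lower and none was higher, but 4 of the 5, *Hba-a1* among them, were higher against the keratin-rich rest (median log2 fold change 0.47), and *Hba-a1* did not pass the test with thinned spots (0.031). The part of these cells in the leading genes was not tested.

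Most basement membrane genes were higher than in all other spots. Of 13 tested, 11 were higher and 1 lower, with a median log2 fold change of 0.59. *Col17a1*, a collagen that anchors basal cells, gave 128, 167, 162 and 188 CPM against 67.3, 66.0, 63.5 and 98 CPM (log2 fold change 1.19). *Col7a1*, of the anchoring fibrils, was lower, at 9.30 ± 3.22 CPM against 15.7 ± 0.996 CPM. Against the keratin-rich rest, 3 of the 13 were higher and 3 lower, *Itga6* among the lower ones, with a median of -0.004.

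Genes that move bicarbonate and protons had 8 higher and 3 lower members of 14 tested, apart from the score gene *Slc4a1*, with a median log2 fold change of 0.61. Among 13 tested against the keratin-rich rest, 4 were higher and 3 lower, and the median was 0.24. *Slc4a4*, a sodium bicarbonate carrier, was at 9.27, 20.04, 8.87 and 14.7 CPM against 3.23, 3.06, 2.77 and 4.41 CPM, a log2 fold change of 2.03. *Car2*, a carbonic anhydrase of the cytosol, had a log2 fold change of 2.02 (43.9 ± 8.59 CPM against 11.4 ± 0.841 CPM). *Car6*, a secreted carbonic anhydrase, was at 1130 ± 112 CPM against 584 ± 73.6 CPM (log2 fold change 1.01), but it was lower than in the keratin-rich rest (log2 fold change -0.34). Among 10 genes of calcium pumps and calcium entry, 6 were higher, led by the plasma membrane pump *Atp2b4* (log2 fold change 1.34), and 3 were lower, led by the muscle pump *Atp2a1*. Their summed level was lower, at 675 ± 53.0 CPM against 882 ± 93.0 CPM. With the keratin-rich rest, 4 of the 10 were higher and 2 lower, with a median log2 fold change of 0.043 in place of 0.38.

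Genes related to the score genes *Gpx2*, *Gabrp* and *Nppc* were examined as 3 lists, and differences between the lists were not tested. Of 23 other genes of glutathione and redox control, 13 were higher and 5 lower. *Hmox1*, haem oxygenase, had the highest log2 fold change of them, 1.21, and *Gclc* and *Gclm*, the subunits of the enzyme that starts glutathione synthesis, were both higher. *Gpx3*, the secreted peroxidase, was lower (37.1 ± 4.37 CPM against 65.3 ± 14.2 CPM). Against the keratin-rich rest, 10 of these 23 genes were higher and 4 lower, with a median log2 fold change of 0.19 in place of 0.37. *Oplah*, which returns 5-oxoproline to glutamate in the glutathione cycle, gave 314, 379, 418 and 327 CPM against 86.9, 94.8, 105 and 95.3 CPM, a log2 fold change of 1.96, and led 13 tested genes of that cycle, compiled after its value had been seen, of which 7 were higher and 3 lower. Of 17 other GABA genes only *Gabre* and *Abat* reached the level for testing, and *Gabre* was higher (6.42 ± 0.792 CPM against 1.96 ± 0.413 CPM). Of 7 tested natriuretic peptide genes, *Furin*, a protease, and *Npr3*, the clearance receptor, were higher and *Prkg1*, a cGMP-dependent kinase, was lower by 1.91 on the log2 scale, and none of 6 tested passed against the keratin-rich rest. For *Npr3* the slices gave 6.85, 1.78, 3.65 and 4.13 CPM against 2.54, 1.92, 2.11 and 3.50 CPM, overlapping ranges with slice 2 in the opposite direction. The receptor *Npr2*, which binds C-type natriuretic peptide, did not pass the test.

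Genes of energy metabolism were called in both directions. Of 14 glycogen genes, 5 were higher and 4 lower, and of 17 glycolysis genes 6 were higher and 5 lower. The summed glycolysis genes were lower in each slice (4015 ± 142 CPM against 4431 ± 224 CPM), and the glycogen genes summed to 417 ± 22.3 CPM against 404 ± 34.2 CPM. *Ppp1r3c*, a targeting subunit for glycogen synthesis (45.8 ± 1.29 CPM against 20.8 ± 1.94 CPM), and *Pfkp*, a phosphofructokinase (190 ± 21.1 CPM against 71.4 ± 3.88 CPM), were the highest of each list, with log2 fold changes of 1.21 and 1.47. *Slc16a3*, a lactate exporter, was lower by 2.32 on the log2 scale, at 2.82, 1.34, 2.09 and 2.36 CPM against 10.9, 10.5, 12.1 and 12.04 CPM. Of 12 tested genes of cationic and neutral amino acid transport and arginine use, 5 were higher, led by the neutral amino acid carrier *Slc7a8* (log2 fold change 0.90), and 4 were lower. Relative to the keratin-rich rest, 2 of 12 glycogen genes were higher and 2 lower, and 5 of 17 glycolysis genes were higher and 3 lower. Some glycolysis genes called there went the other way than against all other spots. The sums were not taken against that rest. Of 11 tested amino acid genes, 4 were higher and 2 lower there (median log2 fold change 0.11, in place of -0.30).

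**Figure D4:**
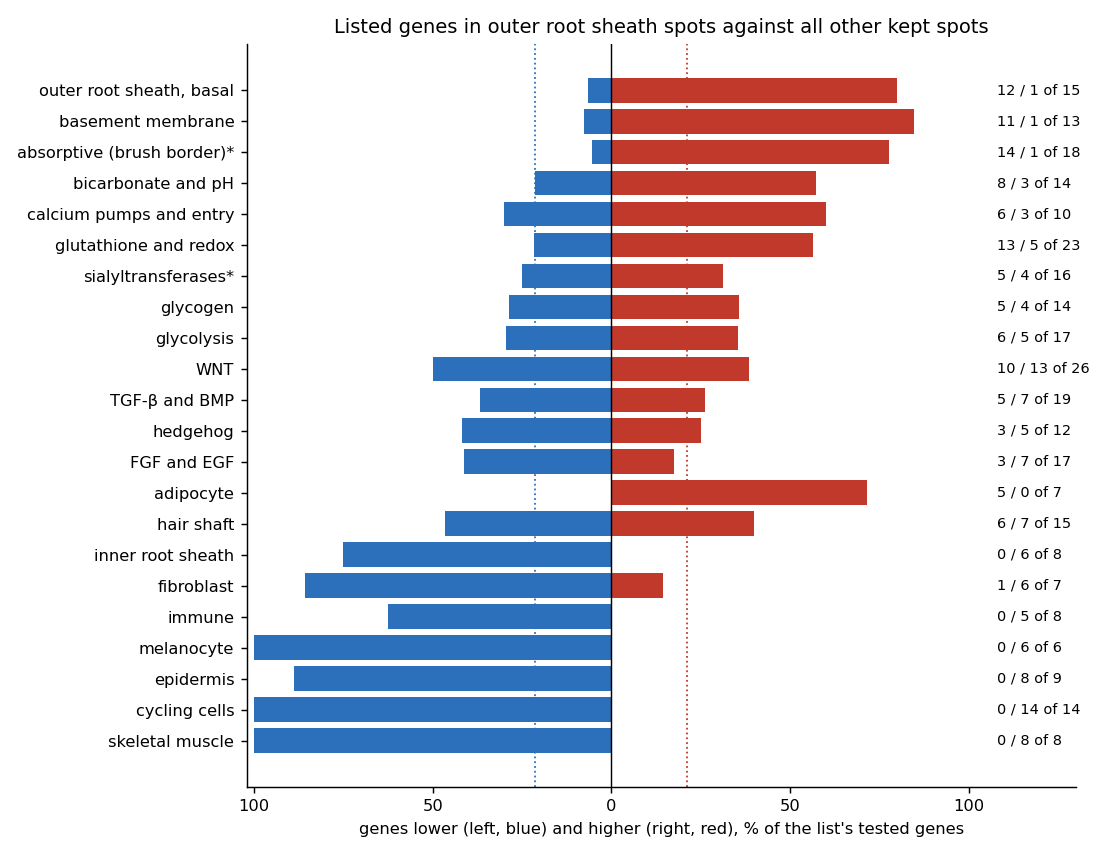
Genes of 22 lists called in outer root sheath spots against all other kept spots, as a percentage of the list's tested genes; red bars to the right are higher genes, blue bars to the left are lower genes, and the numbers give higher and lower of tested. Dotted lines mark 21.2% and 21.4%, the shares of all 13596 genes; the lists with an asterisk were compiled after values had been seen.

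Signalling genes moved in both directions within each pathway. Among 26 tested WNT genes 10 were higher and 13 lower. The higher ones included the inhibitor *Sfrp1* (145, 163, 168 and 207 CPM against 56.1, 54.5, 65.9 and 79.2 CPM, log2 fold change 1.48), the transcription factors *Tcf7l1* and *Tcf7l2*, and *Lgr4*, *Lgr5* and *Lrp6* of the receptor complex. The lower ones included the target *Axin2* (3.86 ± 1.57 CPM against 14.3 ± 1.64 CPM, log2 fold change -1.78), the effector *Lef1* (log2 fold change -1.73) and the ligands *Wnt10b*, *Wnt6*, *Wnt5a*, *Wnt4*, *Wnt7b*, *Wnt3*, *Wnt10a* and *Wnt11*. With the keratin-rich rest in place of all other spots, 9 of the 26 were higher and 6 lower (median log2 fold change -0.16, in place of -0.595). *Lef1*, *Wnt10b*, *Wnt6*, *Wnt3*, *Wnt10a* and *Wnt11* did not pass the test there, and *Dkk3*, which was higher than in all other spots, was lower. In the hedgehog pathway, *Gas1*, a coreceptor, rose by 1.36 on the log2 scale and *Smo* and *Boc* were higher (*Boc* at -0.011 with no call with thinned spots), while the ligand *Shh*, the targets *Ptch1* and *Gli1*, and *Hhip* were lower. In the comparison with the keratin-rich rest, *Gas1* was higher and *Cdon* lower of 11 tested, and *Shh* and *Ptch1* had log2 fold changes of 0.035 and 0.17 with no call.

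Among 17 tested FGF and EGF genes, the receptors *Fgfr3*, *Fgfr1* and *Egfr* were higher and 7 genes were lower. *Fgfr3* was at 251 ± 34.2 CPM against 137 ± 12.1 CPM (log2 fold change 0.91). *Fgf5*, the ligand that ends hair growth, was at 17.7, 26.7, 20.9 and 18.3 CPM against 35.9, 42.0, 48.6 and 45.9 CPM (log2 fold change -0.97), but had 0.13 with no call against the keratin-rich rest. Of 19 TGF-β and BMP genes 5 were higher, led by the activin inhibitor *Fst* (log2 fold change 1.14), and 7 were lower, led by the activin subunit *Inhba* (log2 fold change -1.99). Relative to the keratin-rich rest, 5 of 18 tested were higher and 4 lower, and *Inhba* was not among the lower ones. The median log2 fold change there was 0.06, in place of -0.16. Of 16 FGF and EGF genes tested there, 3 were higher and 8 lower.

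The genes around which the study was built were also examined. *Krox20*, listed as *Egr2*, was at 55.6, 65.5, 58.5 and 58.9 CPM in outer root sheath spots and at 28.4, 30.9, 27.5 and 37.1 CPM in the other spots, without overlap (log2 fold change 1.01, adjusted p = 2.06e-11, edgeR). It was detected in 48.2% ± 5.04 of the outer root sheath spots and in 31.7% ± 2.50 of the others. *Nestin*, listed as *Nes*, was at 23.0, 27.6, 23.5 and 32.4 CPM against 18.2, 16.5, 19.7 and 19.4 CPM (log2 fold change 0.57), and was detected in 28.7% ± 3.18 and 22.0% ± 1.68 of the spots. *Lrig1*, of upper follicle stem cells, was at 105 ± 9.93 CPM against 52.6 ± 9.82 CPM (log2 fold change 1.07). *Krt1*, *Lor*, *Gata6*, *Lgr6*, *Krt79*, *Krt15* and *Thy1* were lower, and *Ly6a* did not pass the test. Against the keratin-rich rest, none of 11 tested genes of this group was higher and 8 were lower. The log2 fold changes of *Krox20* (*Egr2*), *Nestin* (*Nes*) and *Lrig1* were then 0.17, 0.27 and 0.14, with adjusted p = 0.112, 0.0915 and 0.102 (edgeR).

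These shares depend on depth, so they were also taken with every spot thinned to 5500 UMIs, which left out 30 outer root sheath spots and 533 other spots. *Krox20* was then detected in 26.3% ± 2.11 and 16.6% ± 2.61 of the spots, *Nestin* in 15.1% ± 4.93 and 10.02% ± 1.10, and *Lrig1* in 46.2% ± 5.60 and 26.4% ± 3.36. *Acta1* of skeletal muscle, which keratinocytes should lack, was detected in 72.4% ± 6.13 of the thinned outer root sheath spots and in 75.5% ± 3.76 of the others, so a UMI in a spot alone does not show expression in its keratinocytes. *Nestin* was lower than in the other spots in slice 3 when thinned (8.84% against 11.2%), and higher in the other 3 slices.

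To see which genes set the outer root sheath apart from its neighbours, 3 further sets of spots were taken in the same way, as the 10% of each slice with the highest score over upper follicle, inner root sheath or epidermis genes. At most 2 spots per slice belonged to both the outer root sheath set and a comparison set, and these were left out. Spots shared among the 3 comparison sets were not counted, so these sets may overlap each other. The median depth in the 4 slices was 10347, 7127, 6916 and 10127.5 UMIs per upper follicle spot, 18523, 16163, 14875.5 and 14209.5 UMIs per inner root sheath spot, and 10968, 7171, 7808 and 9122.5 UMIs per epidermis spot. All 3 comparisons use the same outer root sheath spots.

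Against the upper follicle, with which the outer root sheath is continuous, 1927 of 10310 genes were higher (18.7%) and 2184 lower (21.2%), 39.9% in all. *St3gal5*, *St6gal1*, *Chrna4* and *Phactr1* were again among the highest, with log2 fold changes of 2.54, 2.42, 2.97 and 2.84. *Vnn1*, a pantetheinase, was at 38.7, 37.2, 46.1 and 34.8 CPM against 2.23, 4.45, 10.4 and 8.85 CPM (log2 fold change 2.64). The hair protein genes *Krtap5-5*, *Krtap5-4* and *Krtap19-4*, members of families with near-identical copies among which reads can be split, were higher by 3.05, 2.43 and 2.54. *Abhd12b*, *Gzmc*, *Aadac*, *Lce1c* and *Rarres1* were lowest, with log2 fold changes from -4.54 to -3.95. *Abhd12b* stood at 1.06 to 2.24 CPM in outer root sheath spots and at 39.3 to 51.2 CPM in upper follicle spots.

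Genes known from hair follicle stem cells went in both directions. *Krt15* was at 322, 319, 328 and 404 CPM in outer root sheath spots and at 1684, 1797, 1570 and 1991 CPM in upper follicle spots (log2 fold change -2.38), and *Cd34* was lower by 1.14. *Krox20* (*Egr2*) was lower than in upper follicle spots (55.6, 65.4, 57.8 and 58.9 CPM against 75.7, 92.6, 74.2 and 109 CPM, log2 fold change -0.57, adjusted p = 4.35e-06, edgeR). *Nestin* (*Nes*) and *Lgr5* were higher, by 0.62 and 1.14. Of the transcription factors, *Sox9* was higher by 0.54, *Nfatc1* was lower by 2.49, and *Tcf7l1* did not pass the test. *Lhx2* was lower by 0.21, but did not pass under most alternatives, among them the fits with DESeq2, without the replicate block and without slice 1, 3 or 4. Of the 15 basal outer root sheath genes, 5 were higher and 6 lower. Of 13 basement membrane genes, 3 were higher and 7 lower.

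Other cells moved with this comparison too. All 7 adipocyte genes were higher, with a median log2 fold change of 1.46, and 4 of 5 erythroid genes were higher, while 6 of 7 fibroblast genes and all 7 tested immune genes were lower, with medians of -1.60 and -2.60. Of 8 inner root sheath genes 7 were higher and *Gata3* was lower, and 14 of 15 hair shaft genes and all 4 tested melanocyte genes were higher, with medians of 1.01 and 0.44. Of the genes of the upper skin, 8 of 9 epidermal and 6 of 7 sebaceous genes were lower, with medians of -3.48 and -3.17, and 5 of 6 smooth muscle genes were lower (median -1.66). What these cells contributed to the other differences was not tested.

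Against the inner root sheath, 2916 of 10603 genes were higher (27.5%) and 2807 lower (26.5%), 54.0% in all. *Trpm6* was at 54.4, 71.5, 61.6 and 59.5 CPM in outer root sheath spots and at 1.26, 1.38, 1.62 and 2.21 CPM in inner root sheath spots (log2 fold change 5.12, SE 0.19). *Slc15a1* was at 164, 226, 231 and 254 CPM against 6.28, 8.63, 7.28 and 9.27 CPM (log2 fold change 4.66), and *Car6* was at 977, 1185, 1123 and 1239 CPM against 45.2, 41.8, 36.4 and 62.3 CPM (log2 fold change 4.49). No values of these 3 genes overlapped. *Tprg*, *Spink12*, *Aqp9*, *Rnase12* and *Slc1a1* had log2 fold changes from 4.22 to 4.76. *Car6*, however, was lower than in upper follicle spots by 1.22 on the log2 scale, and higher than in epidermis spots by 0.63. *Aqp9* was higher than in upper follicle spots by 0.45. It did not pass the test against epidermis spots (log2 fold change 0.22, adjusted p = 0.219, edgeR).

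Of the 15 basal outer root sheath genes 14 were higher than in inner root sheath spots, and *Krt15* was lower by 0.22, but at 0.14 with no call when the top 20% of spots were taken (adjusted p = 0.0508, edgeR). *Krt14* was at 7715, 8693, 8313 and 7953 CPM against 461, 484, 569 and 614 CPM in inner root sheath spots, a log2 fold change of 3.82. The lowest genes were *Avp*, *Krt32*, *Tubb3*, *Sp6* and *Actbl2*, with log2 fold changes from -3.27 to -2.49. *Krt32*, a keratin of the hair cuticle, was at 86.0 to 137 CPM against 469 to 664 CPM, and *Sp6* is a transcription factor of skin appendages. *Krox20* (*Egr2*) was higher by 1.39 and *Nestin* (*Nes*) did not pass the test (log2 fold change -0.06, adjusted p = 0.761, edgeR). Other cells moved here too. All 7 fibroblast genes, all 6 tested immune genes, 4 of 5 tested genes each of Schwann, endothelial and red blood cells, 5 of 7 adipocyte genes, 7 of 9 epidermal genes, all 5 tested upper follicle genes and 4 of 5 tested sebaceous genes were higher, while all 6 melanocyte and 12 of 15 hair shaft genes were lower. The median log2 fold changes were 1.80 for upper follicle, 1.70 for fibroblast, 1.25 for immune, 1.04 for sebaceous, -1.02 for melanocyte and -1.53 for hair shaft genes, and the part of these cells in the other differences was not tested. Without the scaling of library composition, the median log2 fold change of all genes was 0.135 in place of 0.004 and 65.2% of the called genes were higher in place of 51.0%.

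Against the epidermis, 2350 of 10446 genes were higher (22.5%) and 2438 lower (23.3%), 45.8% in all. *Chrna4* led again, with a log2 fold change of 3.27, and *Trpm6*, *St6gal1*, *St3gal5* and *Scrg1* followed with 2.96, 2.84, 2.81 and 2.71. *Slc9a2*, a sodium proton exchanger, was at 58.4, 60.7, 51.1 and 52.5 CPM against 10.6, 4.62, 8.54 and 6.52 CPM (log2 fold change 2.84), and *Fads3*, of the fatty acid desaturase family, was at 806, 880, 825 and 796 CPM against 107, 120, 178 and 133 CPM (log2 fold change 2.64). *Krtap19-4* was higher by 2.98. The lowest genes were *Lce1e*, *Lce1i*, *Lce1f*, *Lce1c* and *Lce1b* of the cornified envelope, with log2 fold changes from -6.87 to -6.19, and *Lce1b* stood at 4.03 to 6.25 CPM against 259 to 427 CPM. *Krt15* was lower by 2.56, *Lgr5* was higher by 1.94, and *Krox20* (*Egr2*) was higher by 0.40, but at -0.0125 with no call when the top 20% of spots were taken. Other cells moved with this comparison as well. All 7 adipocyte and all 5 tested erythroid genes were higher, with median log2 fold changes of 1.61 and 1.35, while all 8 immune, all 8 skeletal muscle and 6 of 7 fibroblast genes were lower, with medians of -2.96, -0.61 and -1.82. Of the other follicle layers, 7 of 8 inner root sheath and 13 of 15 hair shaft genes were higher, with medians of 0.71 and 0.78. Of the upper follicle, sebaceous and smooth muscle genes, 6 of 7, 4 of 6 and 5 of 6 were lower, with medians of -2.35, -2.20 and -1.58. Their part in the other differences was not tested.

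**Figure D5:**
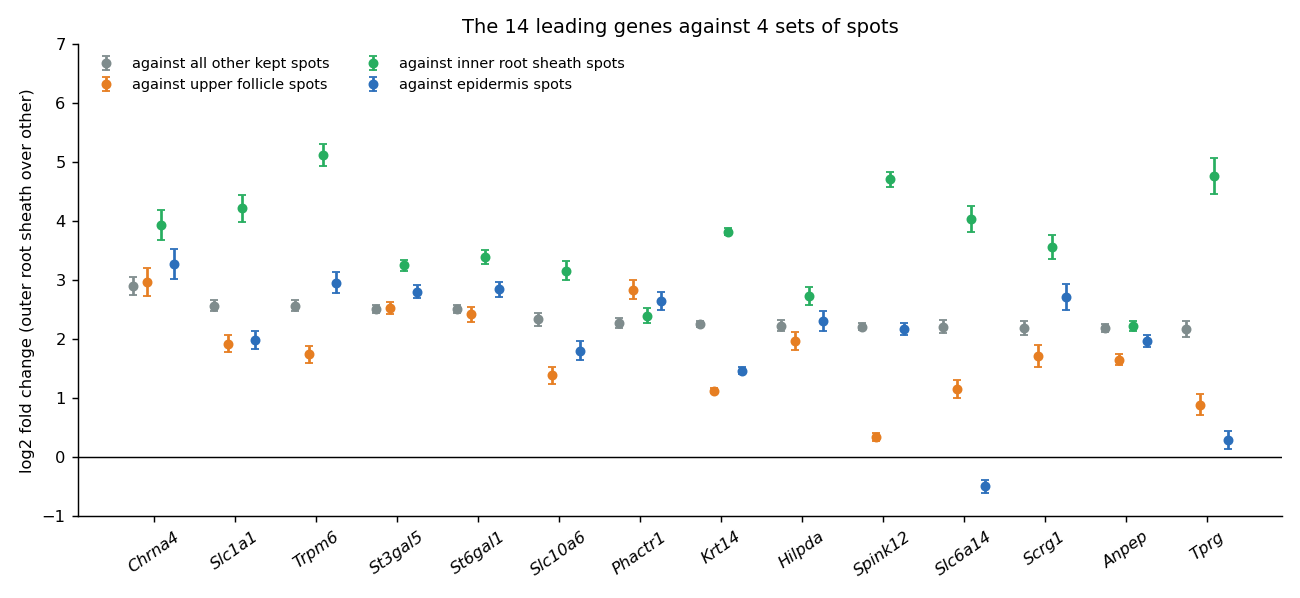
Log2 fold change of 14 leading genes in outer root sheath spots against all other kept spots, upper follicle spots, inner root sheath spots and epidermis spots (points, edgeR estimate; error bars, SE). The values against inner root sheath spots are highest for most genes, and *Slc6a14* falls below 0 against epidermis spots.

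The 14 leading genes named here thus did not all set the outer root sheath apart from each neighbour. *Slc6a14* was lower than in epidermis spots by 0.49 on the log2 scale (adjusted p = 3.48e-04, edgeR), and *Tprg* had a log2 fold change of 0.30 there that did not pass the test (adjusted p = 0.119, edgeR). *Spink12* was higher by 0.34 against upper follicle spots and by 2.17 against epidermis spots. In contrast, 9 of the 14 had log2 fold changes of 1.66 or more against each of the 3 sets, among them *Chrna4*, *St3gal5*, *St6gal1*, *Phactr1* and *Anpep*, and *Anpep* had the lowest of these values. Differences between comparisons were not tested.

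Finally, outer root sheath spots were divided by their distance from the epidermis. Those farther than 3 steps, the median of every slice, were called deep, which gave 42, 34, 20 and 26 spots, and the other 123, 141, 136 and 120 were called superficial. Of 8705 genes tested, 262 (3.01%) were higher in deep spots and 249 (2.86%) lower, 5.87% in all. Without slice 1 the counts were 157 and 138, and without pairing the sums of a slice they were 140 and 173. *Car6* was at 249, 230, 369 and 192 CPM in deep spots and at 1240, 1415, 1257 and 1456 CPM in superficial spots (log2 fold change -2.31, SE 0.10, adjusted p = 3.93e-29, edgeR). *Slc1a1* was at 15.2, 20.3, 10.4 and 17.2 CPM against 63.1, 78.8, 65.1 and 63.3 CPM (log2 fold change -2.003), and *Sphk1*, a sphingosine kinase, was lower by 2.08. These genes were separate between deep and superficial spots in each slice.

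Of 12 tested genes of absorptive membranes, 4 were lower in deep spots, 1 was higher and 7 did not pass the test. *Trpm6* and *Slc15a1* were lower in deep spots and *Slc6a19* was higher. *St6gal1* was lower by 0.59 and *St3gal5* did not pass the test. *Tmem171* and *Mfap4*, an extracellular matrix protein, completed the lowest genes, and *Mfap4* was at 17.2 to 34.8 CPM against 98.3 to 104 CPM. In deep spots, *Lrrc15*, a leucine-rich repeat membrane protein, was at 1193, 1381, 1401 and 1589 CPM, against 656, 648, 899 and 717 CPM in superficial spots (log2 fold change 1.00, SE 0.08), and *Lipm*, a lipase of keratinocytes, and *Upp1*, uridine phosphorylase, were higher by 1.05 and 1.00. *Aatk*, *Fdxr*, *Krtap19-4*, *Gpsm1* and *Rcsd1* were higher by 1.06 to 1.45. Of the 13 genes named by rank here, *Car6* and *Lrrc15* passed under every alternative run. The other 11 did not pass with the top 5% of spots when the epidermis spots and the median distance were also drawn anew, which gave 10 to 38 deep spots per slice. With the top 5% of spots and the division kept, chosen after these values were seen, 12 of the 13 were tested and all 12 passed, and 105 genes were higher and 97 lower in all. *Krtap19-4* also did not pass without the replicate block, *Fdxr*, *Rcsd1* and *Lipm* with thinned spots, *Fdxr*, *Krtap19-4* and *Rcsd1* with 3 strips in place of slices, *Aatk* with the top 20% of spots, and *Rcsd1* with DESeq2 and without slice 1.

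Layers of the follicle moved with this division. Of 8 inner root sheath genes 6 were higher in deep spots and none lower, and of 15 hair shaft genes 11 were higher and none lower. *Krt75* was higher by 0.63 and *Krt6a* lower by 0.51. *Krt14* and *Krt15* were lower, by 0.36 and 0.50. Of 5 tested upper follicle genes, *Cst6*, *Plet1* and *Krt79* were lower and none was higher, with a median of -1.35. Of 7 fibroblast genes 6 were lower, with a median of -1.23, and 4 of 7 adipocyte genes and 4 of 6 immune genes were lower. *Krox20* (*Egr2*; log2 fold change -0.55, adjusted p = 0.0606), *Nestin*, *Lrig1*, *Lgr5* and *Cd34* did not pass the test (edgeR), but these 5 genes passed with the top 20% of spots and the division kept, *Nestin* (*Nes*) and *Lgr5* as higher and the other 3 as lower. Without the scaling of library composition, 38.2% of the called genes were higher in deep spots in place of 51.3%. What the other layers contributed to the differences was not tested.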

How the data were processed

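Space Ranger 2.0.1, with mm10 named as the genome build in the submitters' processing notes, made the files, and the authors deposited for each slice a table of raw UMI counts per gene and spot, unnormalized, with the array row and column of each spot. The deposited positions are an index of the array (other values), not lengths. The tables list 32286 features, and *Krt85* of the hair shaft was not analysed here. The deposited images were not used. The study notes that the authors left out the fourth section, which was distorted, but which deposited spots belong to it was not given in the sources used here, so all deposited spots were used. The paper names 3 mice, and whether the fourth section came from any of them was not given.

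Spots with 250 or more genes were kept (6411 of 6420). The score was the mean over the 7 genes of ln(1 + 10000 × UMIs / total UMIs of the spot), and the top 10% per slice were taken. The members and lists were chosen with earlier results of these data known, and the brush border, glutathione cycle, sialyltransferase and solute carrier lists after the values had been seen. UMIs were summed per slice over each of the 2 sets of spots (8 sums) and tested with edgeR 4.0.16 (R 4.3.3; quasi-likelihood, TMM normalization, filterByExpr, slice as a block, Benjamini-Hochberg adjustment over all genes, called at an adjusted p under 0.05). The 2 sums of a slice come from the same sections and library, which is where the pairing comes from; the correlations of their deviations were 0.275, 0.164, 0.0549 and 0.155. Genes of a score stayed out of the comparisons that used it. The exception was *Krt14*, whose value against the keratin-rich rest was kept among the genes named by rank. Genes were named by a rule: the 15 highest and 8 lowest log2 fold changes against the rest, and the 8 highest and 5 lowest in the other comparisons, among called genes with 1 sign in 4 slices and at least 30 CPM on the higher side, without genes that have only a clone or model number; and the genes of the lists. A few genes that met the rule are not reported here. *Aqp9* in the first comparison, *Rnase12* as a member of no list and genes of the lists compiled later were named after their values were seen. Alternatives were DESeq2 1.42.0, library size alone, no filter, other spot rules (a top 5% or 20% applied to every set of spots), spots thinned to 5500 UMIs, 3 strips in place of slices, and each slice left out. On simulated counts for the comparison with the rest (13492 genes, 198 changed at a log2 fold of 1), 81.8% were recovered and 3.57% of calls were false. These counts had no gene differences between slices and no choice of spots by expression. They therefore do not give the error rate of the calls reported above. Gene positions are from GENCODE M21 on GRCm38. CPM intervals are SDs over 4 slices, and slices shared 963 to 1403 spot barcodes, since they use 1 set of array positions.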

Additional observations from a re-analysis of the deposited data

Results flagged for a closer look

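Over 70 sets of 4 slice values, 4 had a slice far from the other 3, about the 1 in 20 that chance gives. In slice 1 the summed sebaceous genes had a log2 ratio of outer root sheath over other spots of -0.22, against -0.08 to -0.06 in the other slices. In slice 2 the summed dermal papilla genes had a log2 ratio of -1.96, against -1.53 to -1.48. In slice 2 the summed genes of glutathione and redox control had 0.26, against 0.20 to 0.21, and the summed WNT genes had 0.17, against 0.05 to 0.07. For each of the 4 lists, all slices pointed one way.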

How the results depend on the processing

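All 61 changes of genes named by rank against the rest, upper follicle, inner root sheath and epidermis spots kept their direction and call under every alternative run, whereas 2 of the 13 named between deep and superficial spots did. For *Krt14*, the keratin-rich rest was no test, since *Krt14* and *Krt5* chose it. Over 244 results of genes named in the text, 3621 values under alternatives kept direction and call, 173 lost the call, 39 gained it and 22 turned. Against the other spots above the median for *Krt5* and *Krt14*, the log2 fold changes of these genes that turned were *Plet1* -1.10, *Cd34* -0.76, *Ly6a* -0.53, *Mbp* -0.40, *Cldn5* -0.37, *Car6* -0.34, *Dkk3* -0.28, *Itga6* -0.22, *Hba-a1* 0.36, *Wnt11* 0.17, *Ptch1* 0.17, *Fgf5* 0.13, *Krt71* 0.0943, *Shh* 0.0352 and *Krt75* 0.00423. With thinned spots *Boc* was -0.0114, *Plet1* -0.0188 and *Hba-a1* 0.0309, with the top 5% of spots *Plet1* was -0.0712, and with the top 20% *Sbsn* was 0.16, *Krt15* against inner root sheath spots 0.14 and *Krox20* against epidermis spots -0.0125. The cause was not tested.

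In the fits with thinned spots, the sets of spots were also drawn anew, which gave 159, 156, 138 and 133 outer root sheath spots. Counts of higher and lower genes moved by over 1.5 times as follows. Against the rest they were 1571 and 1462 with thinned spots and 1636 and 1684 against those above the median for *Krt5* and *Krt14*; at 2-fold or more they were 319 and 566, and 96 and 562, and 849 were higher with neighbours of members left out. DESeq2 gave 1110 and 1257 against upper follicle, 1880 and 1817 against inner root sheath and 1296 and 1553 against epidermis spots, and thinning gave 1244 and 1336, 1599 and 1522, and 1460 and 1595. In deep spots, DESeq2 gave 141 and 101, the top 5% of spots 8 and 24, the top 20% 584 and 682 (epidermis spots and the division being drawn anew with that share; with both kept, an alternative chosen after seeing the data, 105 and 97, and 650 and 677), and strips 116 and 139; thinning gave 130 lower genes and the fit without the replicate block 140 higher genes. The block moved no other count by over 1.5 times. Leaving out 1 slice gave 157 to 260 higher and 138 to 228 lower genes in deep spots. With the top 5% and 20% of spots, 19.9% and 55.2% of neighbours were members, and with the top 20%, 91.3% lay 2 to 4 steps from the epidermis and the log2 ratios of *Slc45a3*, *Slc4a1*, *Atp2c2*, *AU018091*, *Gpx2*, *Gabrp* and *Nppc* were 2.63, 3.16, 2.85, 2.81, 2.56, 2.17 and 2.73. Thinned, *Krox20*, *Nestin* and *Lrig1* were detected in 26.3%, 15.1% and 46.2% of member spots. The 4 slices share the same mice, 3 by the paper's account, and the deep spots number 20 to 42 per slice.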

Other observations

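Hair shaft genes varied widely between slices within the outer root sheath spots. The 15 genes summed to 23670, 13870, 14040 and 11570 CPM in the 4 slices, and in the other spots to 20340, 14510, 12930 and 11410 CPM. *Krtap19-4* was at 14.9, 80.4, 92.2 and 74.8 CPM in the outer root sheath spots compared with the epidermis, with slice 1 lowest, and *Krtap5-5* was at 51.6, 124, 134 and 124 CPM in those compared with the upper follicle, again with slice 1 lowest. *Rnase12* was at 13.3, 39.8, 41.2 and 25.9 CPM in those compared with the inner root sheath. *Krt14*, in contrast, was lowest in slice 1 by little, at 7715 CPM where the others had 7953 to 8676 CPM. The cause was not tested.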
